A study of Homo sapiens with 4 samples.

Results

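ZNF616 is a zinc-finger gene on the long arm of chromosome 19, where it lies in a row of related zinc-finger genes. In SK-MEL-28 as in A375 cells, its RNA was higher after siRNA against LINC00622 (siLINC00622) than after control siRNA (siNC). The members described here are ZNF616 and the neighbours ZNF614, ZNF615, ZNF432, ZNF841, ZNF836, ZNF766, ZNF480, ZNF610 and ZNF528. They were chosen by the ratio of ZNF616 between siLINC00622 and siNC in both lines and by the place of the other genes on the chromosome, so the treatment values of ZNF616 are a description without a test. Of these 10 genes, 9 have a row in the table of 17755 genes. ZNF610 has no row in the table analysed here and is not described further. The 9 listed members all reached the minimum of 10 counts in at least 1 library of each line.

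The question was whether the neighbours were higher together with ZNF616. As a group they were not. ZNF616 had log2 ratios of 1.30 (SK-MEL-28) and 1.05 (A375), whereas the median of the 8 listed neighbours was -0.014 and 0.11. ZNF836 was the only listed neighbour past 1.5-fold, in A375 and not in SK-MEL-28.

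Zinc-finger genes of this kind encode DNA-binding proteins, and many carry a KRAB domain that recruits the corepressor TRIM28. TRIM28 in turn brings in histone methyltransferase, heterochromatin and deacetylase proteins, and the targets known best are transposable elements. Such genes arose by repeated duplication, so neighbours on chromosome 19 are often similar in sequence, and the last exons of such genes often carry heterochromatin marks.

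SK-MEL-28 and A375 are established human melanoma lines. Each was treated with siNC or siLINC00622 for 6 h without serum and then kept for 24 h in medium with 10% serum, and there was 1 library per condition. LINC00622 is a long noncoding RNA, and the study sequenced these cultures to learn which genes depend on it. The labels do not say which of the siRNAs named by the study was sequenced, and no library has a replicate, so no difference within a line has a replicate check.

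Library totals were between 31269923 and 36384819 counts. Counts were scaled within each line by TMM, a method that sets the bulk of genes to no change, and the log2 ratio of siLINC00622 over siNC was taken with a prior count of 2. Its 95% Clopper-Pearson interval covers counting error only. The targeted LINC00622 had 309 (siNC) and 135 (siLINC00622) counts in SK-MEL-28, which gives a log2 ratio of -1.21 (-1.53 to -0.93). In A375 it had 135 and 86 counts, a log2 ratio of -0.84 (-1.27 to -0.46). Of 8 melanocyte lineage markers, 7 were above 1 FPKM in both SK-MEL-28 libraries but 4 in both A375 libraries, where TYR, TYRP1, MLANA and DCT stayed below 1 FPKM. Of 9 markers of keratinocytes, fibroblasts, leukocytes and endothelium, 2 (KRT14 and LUM) are listed, with a summed level between 9.16 and 9.97 FPKM per library. The lines differed in which of them was higher. KRT14 had 0.080 and 0.026 FPKM (siNC and siLINC00622) in SK-MEL-28, against 7.01 and 6.14 in A375. LUM had 9.08 and 9.77 FPKM in SK-MEL-28, against 2.24 and 3.83 in A375. The labels call the source melanoma tissue, although the libraries are of cell lines.

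The siRNA target sites and the upstream sequences of the pair of members with most similar promoters are shown first. They show what the siRNA matches and how alike ZNF616 and its neighbour ZNF841 are upstream. Both siRNA targets lie in the LINC00622 transcript of 1570 bases, siLINC00622_1 at bases 555 to 573 and siLINC00622_2 at bases 815 to 833. Capitals mark the bases that pair with the guide's seed.
siLINC00622_1: ccctaaagaaaGTGAGAAa
siLINC00622_2: ggcaacctctaATTGACTt
The seed site of the first occurs in 30.5% and that of the second in 20.9% of 10192 genes, taking the longest GENCODE 29 transcript where it is protein-coding. In the ZNF616 transcript of 4335 bases the first occurs 0 times and the second 1 time. ZNF841, ZNF836 and ZNF480 share that pattern of 0 and 1 sites. ZNF614 has 3 sites for the first and 0 for the second, and ZNF766 has 2 and 0. ZNF615 and ZNF528 each have 1 and 0 sites, and ZNF432 has 0 of either. Their part in the results was not tested.

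ZNF616 (ENSG00000204611) lies on the minus strand at chr19:52113091-52139922 in GRCh38, by the GENCODE 29 annotation. The submitters' notes name hg19, so all positions here come from matching the gene identifier and not from the deposited table. ZNF841 lies on the same strand at chr19:52064466-52095765 and ZNF836 at chr19:52153864-52171643. The 250 bases before the start of a gene were taken from RefSeq on GRCh38.p14 for the 8 listed members with an entry. ZNF480 has none. The ZNF432 window, at chr19:52048839-52049088, lies inside the GENCODE 29 gene at chr19:52031379-52095738 and not before its start there. The same holds for the ZNF614 window, at chr19:52028380-52028629, inside the gene at chr19:52012765-52030240. The windows of ZNF615, ZNF836 and ZNF766 reach a short way past the GENCODE start.

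The ZNF616 and ZNF841 upstream sequences were the most alike of 28 pairs, with 187 identical bases in 256 aligned columns, or 73.0%. Over all pairs the median was 50.3%, and the next pair, ZNF615 and ZNF432, had 55.5%. ZNF616 and ZNF841 are shown 5′ to 3′ on the strand of the gene, at chr19:52139939-52140188 for ZNF616 and chr19:52095766-52096015 for ZNF841. Capitals mark the GC box, the letters GGGCGG or on the other strand CCGCCC.
ZNF616: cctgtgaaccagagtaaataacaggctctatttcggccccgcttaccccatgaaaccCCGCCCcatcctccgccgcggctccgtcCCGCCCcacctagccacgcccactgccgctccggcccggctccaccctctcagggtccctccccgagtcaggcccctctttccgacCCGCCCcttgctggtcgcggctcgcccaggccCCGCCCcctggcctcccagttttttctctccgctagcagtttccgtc
ZNF841: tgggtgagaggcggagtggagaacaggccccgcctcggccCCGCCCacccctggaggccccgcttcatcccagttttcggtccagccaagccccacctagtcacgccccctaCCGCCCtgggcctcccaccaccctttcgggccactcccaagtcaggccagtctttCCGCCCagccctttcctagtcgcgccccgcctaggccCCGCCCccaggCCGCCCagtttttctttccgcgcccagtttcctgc
ZNF616 holds 4 GC boxes in 250 bases with a GC content of 68.4%, and ZNF841 holds 5 with 69.6%. ZNF836, the neighbour that passed 1.5-fold in A375, also holds 4, with a GC content of 54.0%. ZNF432, ZNF766 and ZNF528 hold 1 each, and ZNF614 and ZNF615 hold 0. A GC box stands in 42.2% of 27305 promoter windows of this length, so its presence is common. The letters AAGATGG or CCATCTT, a core of YY1 sites found in 3.77% of windows, occur 2 times in ZNF615 and 1 time each in ZNF614 and ZNF432, and 0 times in ZNF616 and ZNF841. ETS cores (CCGGAA or TTCCGG, in 14.8% of windows) occur 1 time each in ZNF432 and ZNF528. A CCAAT box (CCAAT or ATTGG, in 33.0%) occurs 1 time, in ZNF766. A TATA box (TATAAA or TTTATA, in 11.2%) occurs in 0 of the 8.

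In SK-MEL-28, ZNF616 had 199 counts with siNC and 505 with siLINC00622. In A375 it had 165 and 398. The siLINC00622 library was the higher in both lines, and both siLINC00622 libraries were above both siNC libraries. The SK-MEL-28 pair gave a log2 ratio of 1.30 (1.07 to 1.56), or 2.47-fold, and the A375 pair one of 1.05 (0.80 to 1.33), or 2.07-fold. In RNA from whole cultures, more cells that express a gene and more RNA per cell cannot be told apart.

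A higher ratio than that of ZNF616 was found for 64 of 15442 genes with at least 10 counts in SK-MEL-28 and for 134 of 16021 in A375. Of 14721 genes that reached the minimum in both lines, 102 were past 1.5-fold higher in both, which is 0.693%, and 8 had a log2 ratio of at least 1 in both. ZNF616 is among these 8. As it was selected for this, nothing is read from its place.

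Measured per transcript length, ZNF616 had 1.22 and 3.01 FPKM in the siNC and siLINC00622 libraries of SK-MEL-28 and 1.08 and 2.23 FPKM in those of A375. By this level it stood 6th of the 9 listed members with siNC and 3rd with siLINC00622 in SK-MEL-28, and 7th and 5th in A375. ZNF480 was the highest of the 9 in all 4 libraries, between 5.51 and 6.38 FPKM, and ZNF841 the second, between 3.75 and 4.53 FPKM. ZNF836 was the lowest in all 4, between 0.243 and 0.466 FPKM. Without replicates, the distance between neighbours in this order cannot be set against a spread between libraries of 1 condition.

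**Figure D1:**
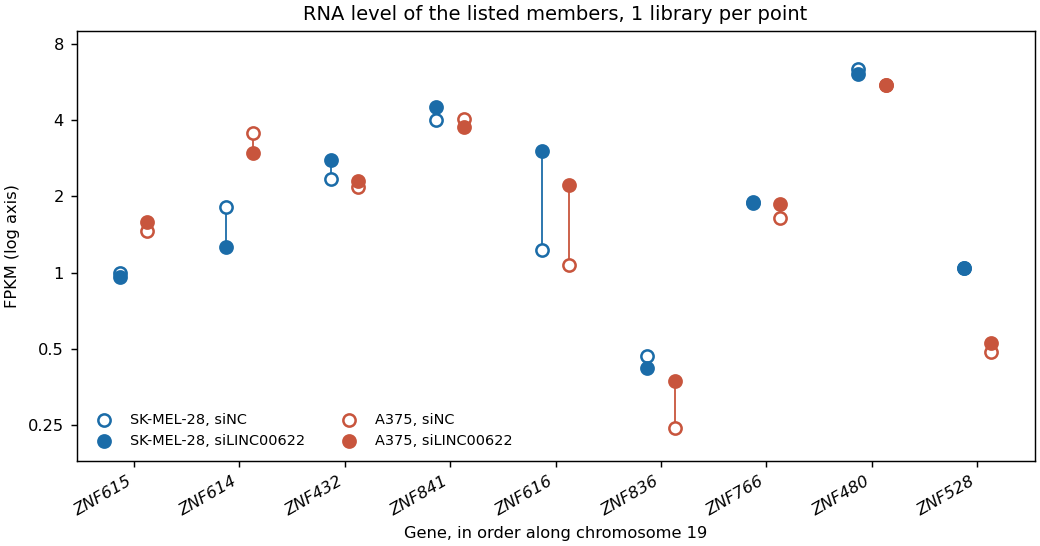
RNA level in FPKM on a log axis for the 9 listed members in their order along chromosome 19, with 1 point per library, open for siNC and filled for siLINC00622. ZNF616 is the member whose filled points lie far above the open ones in both lines (1.22 to 3.01 FPKM in SK-MEL-28 and 1.08 to 2.23 FPKM in A375), while ZNF480 and ZNF841 stay the highest and the second highest.

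The change can also be read within each library, with no scaling between libraries. ZNF616 made up 5.56% (4.83 to 6.36) of the counts on the 9 listed members in SK-MEL-28 with siNC and 12.6% (11.6 to 13.7) with siLINC00622. In A375 its share was 4.94% (4.23 to 5.73) and 9.78% (8.88 to 10.7). The range after each share is its 95% Clopper-Pearson interval, and as ZNF616 was chosen on this contrast no test is drawn from it. Per count on ZNF841, the gene with the most similar promoter, ZNF616 had 0.350 and 0.762 counts in SK-MEL-28, against 0.304 and 0.680 in A375. Both genes lie in the same libraries, so depth and scaling do not enter this ratio.

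The neighbours that lie closest are ZNF841 and ZNF432 on one side and ZNF836 on the other, all on the strand of ZNF616. ZNF841 had 568 (siNC) and 663 (siLINC00622) counts in SK-MEL-28, giving a log2 ratio of 0.19 (0.03 to 0.36), and 543 and 585 in A375, a log2 ratio of -0.10 (-0.27 to 0.07). ZNF432 had 466 and 571 counts in SK-MEL-28, a log2 ratio of 0.26 (0.08 to 0.44), and 407 and 501 in A375, a log2 ratio of 0.09 (-0.10 to 0.28). Both ratios in SK-MEL-28 lie above 0 by more than the counting error, yet far under that of ZNF616. By the GENCODE annotation the starts of ZNF432 and ZNF841 are close together. The genes have 199 exonic bases in common, so reads there cannot be assigned to a single gene. The upstream sequence of ZNF432 described above lies before a different start, taken from RefSeq.

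ZNF836 had 73 and 68 counts in SK-MEL-28, a log2 ratio of -0.13 (-0.63 to 0.36). In A375 it had 36 and 64 counts, a log2 ratio of 0.60 (0.01 to 1.25). This is the least abundant member, and its A375 value lies just past the 1.5-fold limit of 0.585 on the log2 scale. It falls under that limit with a prior count of 5 (0.56) and on the deposited FPKM with a pseudocount of 0.1 (0.46) or 1 (0.14). Of its exonic bases, 13.1% are also annotated to AC011468.2 on the same strand.

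ZNF614 was the 1 listed member below 0 in both lines by more than the counting error. It had 338 and 242 counts in SK-MEL-28, a log2 ratio of -0.51 (-0.76 to -0.27), and 627 and 609 in A375, a log2 ratio of -0.25 (-0.41 to -0.09). Neither ratio passed 1.5-fold. ZNF615, which lies beside it, had 161 and 160 counts in SK-MEL-28, against 224 and 282 in A375, with log2 ratios of -0.04 (-0.37 to 0.28) and 0.12 (-0.14 to 0.38).

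On the far side of ZNF836 lie ZNF766, ZNF480 and ZNF528, on the plus strand. ZNF766 had 14.5 and 14.9 scaled CPM (counts scaled to a common library size by TMM over all 4 libraries) in SK-MEL-28, against 11.2 and 13.0 in A375, with log2 ratios of 0.03 (-0.15 to 0.22) and 0.19 (-0.0025 to 0.39). ZNF480 had 1024 and 1008 counts in SK-MEL-28, against 836 and 972 in A375, with log2 ratios of -0.05 (-0.18 to 0.07) and 0.0079 (-0.13 to 0.14). ZNF528 had 295 and 304 counts in SK-MEL-28, against 129 and 163 in A375, with log2 ratios of 0.01 (-0.22 to 0.25) and 0.13 (-0.21 to 0.47). All 6 intervals hold 0. The A375 siLINC00622 library is deeper after TMM than its control by 0.21 on the log2 scale, so raw counts there are higher at a ratio of 0.

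**Figure D2:**
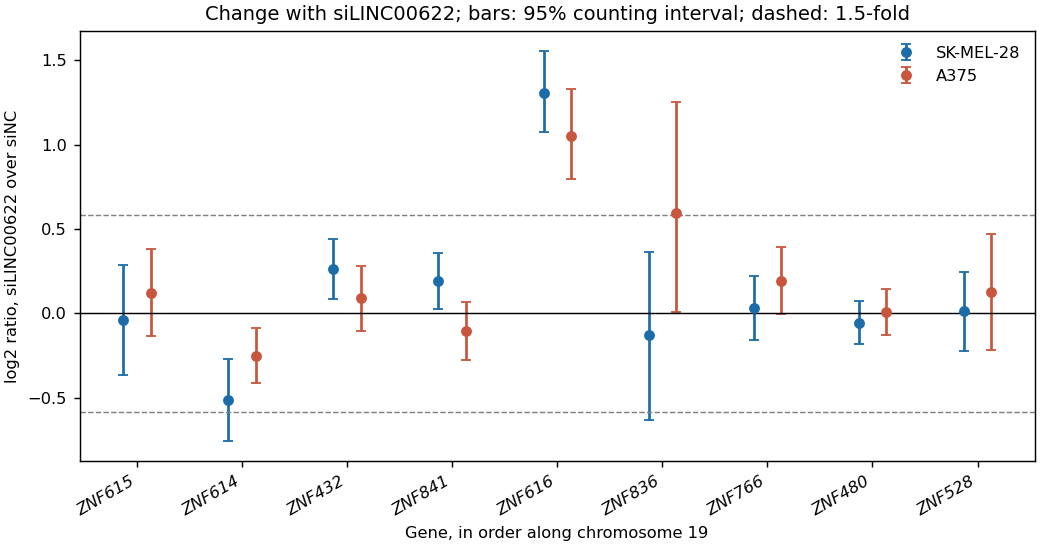
Log2 ratio of siLINC00622 over siNC for the 9 listed members in their order along chromosome 19, with 95% counting intervals from 1 library per condition and dashed lines at 1.5-fold. ZNF616, on which the members were chosen, stands at 1.30 and 1.05, the neighbours lie between -0.51 and 0.60, and ZNF836 in A375 has a wide interval (0.01 to 1.25).

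In SK-MEL-28, 0 of 8 listed neighbours were past 1.5-fold higher and 0 lower, where 4.56% of all genes were higher and 6.49% lower. In A375, 1 of 8 was higher (ZNF836) and 0 lower, where 4.52% of all genes were higher and 4.34% lower. Intervals away from 0 were found for 3 of 8 in SK-MEL-28, beside 46.9% of all genes, and for 2 of 8 in A375, beside 45.9%. These shares rest on 8 genes. The neighbours' medians of -0.014 and 0.11 stood beside all-gene medians of -0.0040 and 0.0043, with quartiles from -0.20 to 0.17 in SK-MEL-28 and from -0.17 to 0.18 in A375. With their counts summed, the 8 neighbours gave a log2 ratio of 0.02 (-0.05 to 0.08) for SK-MEL-28 and -0.00066 (-0.07 to 0.07) for A375.

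The treatment effect was also fitted over both lines with edgeR's quasi-likelihood test, with line as a term and 16258 genes tested. This called 37 genes, or 0.228%, at an adjusted p under 0.05. Of the 8 neighbours, 0 were called, and 1 had an unadjusted p under 0.05, as had 14.6% of all genes tested, namely ZNF614 with a log2 effect of -0.36 ± 0.14 (SE) and an edgeR adjusted p of 0.312. DESeq2 gave an adjusted p for only 2 of the 8, ZNF841 and ZNF480, and called neither, so it says nothing of calls for the other 6. Its unadjusted p was under 0.05 for 0 of 8, beside 6.58% of all 17755 genes. The effects of the other 7 neighbours lay between -0.01 (ZNF480) and 0.22 (ZNF836), beside 1.20 for ZNF616, for which no p is given. The fit has 1 residual degree of freedom per gene and borrows its spread from other genes, and a missed threshold does not show that a gene was unchanged. Whether an effect differed between the lines was not tested, since that fit leaves no residual degree of freedom.

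PPP2R1A, which encodes the scaffold subunit of a serine/threonine phosphatase, lies inside the cluster between ZNF836 and ZNF766. It had 7583 and 8054 counts in SK-MEL-28, against 8160 and 9954 in A375, with log2 ratios of 0.06 (0.01 to 0.10) and 0.08 (0.03 to 0.12). It is far more abundant than the zinc-finger genes around it, so even such small ratios leave 0 by more than the counting error.

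Of 11 further zinc-finger genes taken as flanking, 9 are listed, and ZNF534 and ZNF578 have no row in the table analysed here. Among the 9, ZNF880 lies inside the span of the members, between ZNF480 and ZNF528. None of the 9 was past 1.5-fold in either line. Their log2 ratios had a median of -0.15 (SK-MEL-28) and -0.04 (A375). By edgeR's quasi-likelihood test over both lines 0 of 9 were called, beside 0.228% of all genes. An unadjusted p under 0.05 was found for 1 of 9, beside 14.6% of all genes. DESeq2 gave an adjusted p for 0 of the 9, and an unadjusted p under 0.05 for 0, beside 6.58% of all genes. The 1 gene with an edgeR unadjusted p under 0.05, named after its values were seen, is ZNF808. It had an effect of -0.49 ± 0.19 (SE), an edgeR adjusted p of 0.300 and log2 ratios of -0.48 and -0.51 within the lines.

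Of the genes listed within 700 kb of the start of ZNF616, 23 others reached the minimum in SK-MEL-28 and 24 in A375. Their log2 ratios lay between -0.51 (ZNF614) and 0.31 (ZNF83) in SK-MEL-28, with a median of -0.12. In A375 they lay between -0.53 (AC011468.1) and 0.60 (ZNF836), with a median of -0.04. Past 1.5-fold higher were 0 of 23 in SK-MEL-28 and 1 of 24 in A375, beside 4.56% and 4.52% of all genes. Past 1.5-fold lower were 0 in each line, beside 6.49% and 4.34%. Among the listed neighbours, the nearest starts by GENCODE are 31.7 kb away for ZNF836 and 44.2 kb for ZNF841 and ZNF432. In SK-MEL-28 these 3 genes, on both sides of ZNF616, had ratios between -0.13 and 0.26. In A375 their ratios were -0.10 (ZNF841), 0.09 (ZNF432) and 0.60 (ZNF836), the last being the gene of the window past 1.5-fold higher.

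**Figure D3:**
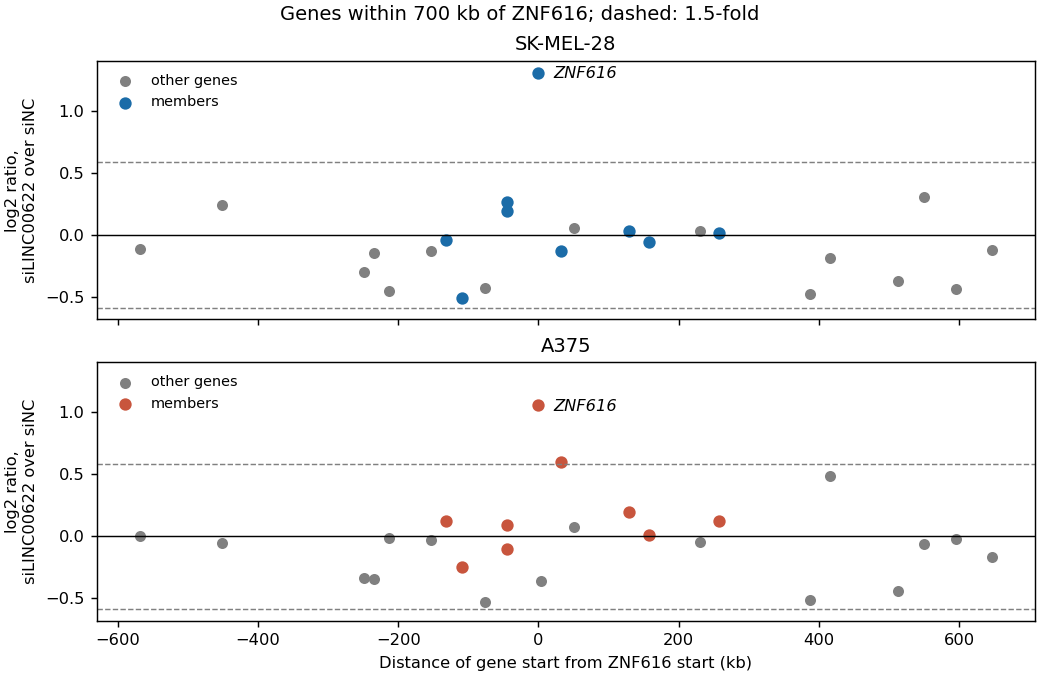
Log2 ratio of siLINC00622 over siNC against the distance of each gene's start from that of ZNF616 in kb, for listed genes within 700 kb that reached 10 counts in the line, members coloured and other genes grey. In SK-MEL-28 the 23 other genes lie between -0.51 and 0.31 and in A375 the 24 others lie between -0.53 and 0.60, all below ZNF616 at 1.30 and 1.05.

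Sequence shared between genes was measured, because a read from it cannot be assigned to 1 gene. Of all 50-base windows of the ZNF616 transcript, 0.840% occur also in a transcript of another gene, mostly ZNF841 (0.653%). For ZNF841 the share was 2.73% and for ZNF836 14.7%, of which 13.3% was with AC011468.2. For the other 6 it lay between 0.512% (ZNF480) and 1.68% (ZNF766). ZNF616 shares 41 of its 4891 exonic bases with AC011468.2 on the same strand and 0 with a gene on the other strand. ZNF432 overlaps the antisense gene AC011468.5 by 501 bases and ZNF480 overlaps AC010320.4 by 72. The library kit is not stated to mark strand, so reads from a gene and its antisense partner cannot be told apart. The part of shared sequence in the ratios was not tested.

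The wider class was described by all genes named ZNF and a number. On chromosome 19, 213 are listed, of which 207 reached the minimum in SK-MEL-28 and 213 in A375. Past 1.5-fold, SK-MEL-28 had 2 of them higher and 22 lower, and A375 had 3 higher and 6 lower, with ZNF616 itself among the higher. In SK-MEL-28 these are 0.966% and 10.6% of the class, beside 4.56% and 6.49% of all genes, and in A375 they are 1.41% and 2.82%, beside 4.52% and 4.34%. The class medians on the log2 scale were -0.13 and -0.08. ZNF616 had the highest ratio of the class in both lines, but it was chosen on these ratios, so nothing is read from this place. The next were ZNF497 in SK-MEL-28 at 0.80, on only 7 and 14 counts, and ZNF837 in A375 at 0.86, on 57 and 121.

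Of 207 zinc-finger genes of chromosome 19 measured in both lines, 104 were below 0 in both and 39 above 0 in both, or 50.2% and 18.8%. Of all 14721 genes measured in both, 31.3% were below 0 in both and 30.9% above. ZNF616, chosen for its ratio in both lines, was the 1 gene of the class past 1.5-fold higher in both. Past 1.5-fold lower in both lines were 5, or 2.42%, beside 1.09% of all genes. Named here after their values were seen, they are ZNF404, ZNF420, ZNF569, ZNF829 and ZNF850, which start between 8.24 and 15.4 Mb from ZNF616 on the centromere side. ZNF850 had 655 and 422 counts in SK-MEL-28, against 337 and 200 in A375, with log2 ratios of -0.66 and -0.95. ZNF404 had 13 and 2 counts in SK-MEL-28, and its log2 ratio of -1.93 has a counting interval from -5.92 to -0.59. Of 194 zinc-finger genes on other chromosomes measured in both lines, 0 were past 1.5-fold in both in either direction. They leaned downward too, with 42.8% below 0 in both lines and 21.6% above, so the lean was not particular to chromosome 19.

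**Figure D4:**
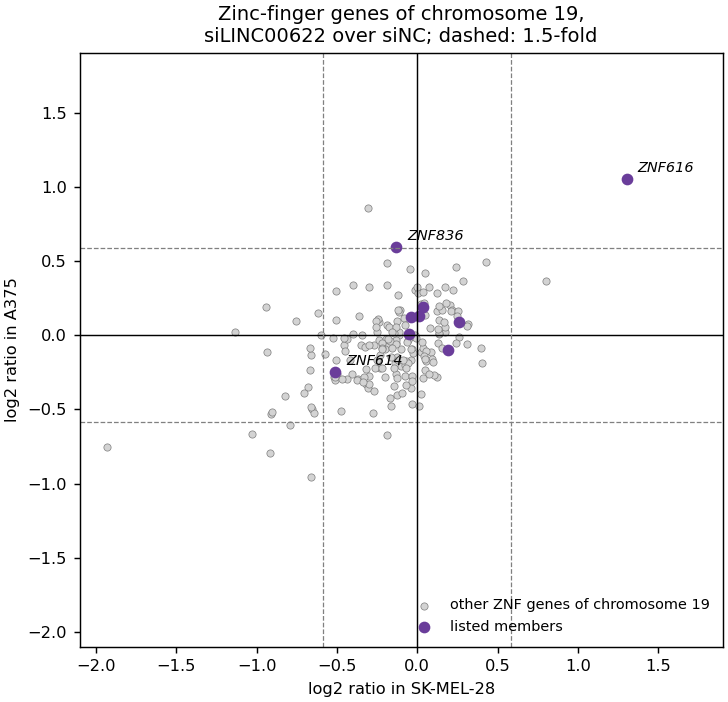
Log2 ratio of siLINC00622 over siNC in A375 against that in SK-MEL-28 for the 207 listed ZNF genes of chromosome 19 that reached 10 counts in both lines, listed members in purple and 1.5-fold limits dashed. ZNF616, on which the members were chosen, is the single point past the limit at the upper right (1.30 and 1.05), and 5 genes lie past it at the lower left.

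Because zinc-finger proteins with a KRAB domain act through shared corepressors, a corepressor list of 19 genes was described as well. It also holds genes of DNA methylation, such as UHRF1 and DNMT1, and no link of its genes to KRAB proteins was tested. All 19 are listed. UHRF1, which binds hemimethylated DNA and recruits DNMT1, had 2838 and 1574 counts in SK-MEL-28, against 7873 and 5454 in A375, with log2 ratios of -0.88 and -0.74. By edgeR's quasi-likelihood test over both lines it fell, with an effect of -0.80 ± 0.091 (SE) and an adjusted p of 0.0497, close to the threshold. It was the 1 of 19 called, beside 0.228% of all genes, and 5 of 19 had an unadjusted p under 0.05, beside 14.6% of all genes. DESeq2 called it too, but the edgeR call was lost with library totals (adjusted p 0.0923) and with a minimum of 50 counts (adjusted p 0.0852), and limma on FPKM gave an adjusted p of 0.0620.

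The log2 ratios of the next 5 genes of the corepressor list were smaller. CBX5, a heterochromatin protein gene, had log2 ratios of -0.39 and -0.28, and DNMT1, the maintenance DNA methyltransferase gene, of -0.33 and -0.29. HDAC1, a histone deacetylase gene, had 0.31 and 0.26, and CHD3, a chromatin remodeller gene, had 0.08 and 0.35. TRIM28 itself had -0.13 and -0.30. None of these 5 was called, with edgeR adjusted p-values between 0.174 and 0.368. The part of these values in the level of ZNF616 was not tested.

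The lines themselves were compared over 2 libraries each, a contrast that the choice of members did not use. With edgeR's quasi-likelihood test and treatment as a term, 34.1% of 16258 genes were called higher in SK-MEL-28 and 34.9% lower. Of the 9 listed members, 4 were called higher and 2 lower. For 8 of 9 the libraries of the lines did not overlap, where this held for 82.7% of all genes.

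ZNF528 differed most, with 9.41 and 9.49 scaled CPM in the siNC and siLINC00622 libraries of SK-MEL-28 and 3.85 and 4.26 in those of A375. It was higher in SK-MEL-28 by 1.22 ± 0.17 (SE) on the log2 scale, with an edgeR adjusted p of 0.000776. ZNF614 had 10.8 and 7.56 scaled CPM in SK-MEL-28, against 18.7 and 15.9 in A375, lower in SK-MEL-28 with a log2 effect of -0.93 ± 0.14 (SE) and an edgeR adjusted p of 0.00118. These calls held in all 6 alternatives with a test. Members thus differed between the lines in both directions. With 34.1% of all genes called higher and 34.9% lower, this is common and is not read as particular to the members.

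ZNF616 had 6.35 and 15.8 scaled CPM in SK-MEL-28, against 4.92 and 10.4 in A375, a log2 effect of line of 0.49 ± 0.15 (SE) with an edgeR adjusted p of 0.0265. It is the 1 listed member whose lines overlap, as its A375 siLINC00622 library lay above its SK-MEL-28 siNC library. The adjusted p was 0.187 with DESeq2, and the calls of ZNF616, ZNF432 and ZNF480 were lost with DESeq2, with library totals and with limma on FPKM. ZNF432 was higher in SK-MEL-28 by 0.37 (edgeR adjusted p 0.0387) and ZNF480 by 0.35 (edgeR adjusted p 0.0204). ZNF615 was lower, with an effect of -0.47 (edgeR adjusted p 0.0476), a call lost with DESeq2 and with its size factors. ZNF841, ZNF836 and ZNF766 had effects of 0.30, 0.70 and 0.29 and were not called, with edgeR adjusted p-values of 0.0747, 0.0531 and 0.0951. ZNF836, the closest to the threshold, was called with DESeq2 size factors in edgeR (adjusted p 0.0481) and without a filter on low counts (adjusted p 0.0471).

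The 5 genes whose pattern over the 4 libraries was most like that of ZNF616 were sought among 14151 genes with a mean of at least 1 CPM. Likeness was the distance between log2 CPM profiles centred on their means, where 0 is the same pattern. STX12, an endosomal syntaxin gene on chromosome 1, was nearest at 0.159, with 940 and 2283 counts in SK-MEL-28, against 684 and 1884 in A375, and log2 ratios of 1.25 and 1.25. ENSG00000276728, FAM78A, KPNA5 and MESD followed at 0.325, 0.362, 0.385 and 0.420. None of the 5 lies on chromosome 19. The neighbours ranked between 651 (ZNF432) and 11039 (ZNF614) of 14150 genes by the same measure, and over 4 libraries with the treatment in the pattern this is a description only.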

How the data were processed

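The cells were SK-MEL-28 and A375 with siNC or siLINC00622, measured by RNA-Seq in 4 libraries with 1 per condition and grouped by the line and treatment in their labels. By the study's methods, poly(A) RNA was sequenced. The submitters' processing notes name hg19, HISAT2, TopHat2, Bowtie2 and HISAT without a role, and how reads were counted is not given in the sources used here. The authors deposited raw counts per gene, which are whole numbers. The authors deposited CPM too, and the ratio of count to CPM gave each library total. The authors deposited FPKM, where length and library size are scaled out, and TPM, which was not used. Genes were placed on GRCh38 by identifier, and 17332 of 17535 Ensembl identifiers were found in GENCODE 29.

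The members and lists were chosen with earlier results of these data known. The genes named are the members, LINC00622, PPP2R1A and flanking zinc-finger genes past 1.5-fold in a line. Named too are at most 6 genes of the corepressor list with the largest change and the 5 genes most like ZNF616. Genes named as the ends of a range or the next in an order were chosen after their values were seen. Ratios used TMM within a line (edgeR 4.0.16, R 4.3.3) on genes with at least 10 counts in 1 library of the line. Tests over all genes used edgeR's quasi-likelihood test on counts passing filterByExpr, with Benjamini-Hochberg adjustment. In the treatment fit the libraries were paired by cell line, which was a term of the model. DESeq2 gave no adjusted p for the treatment for 8950 of 17755 genes, which were left as missing. Each condition has 1 library, so p-values measure no spread between replicates. They rest on how far the treatment effect differed between the 2 lines, with the spread shared across genes. Alternatives covered scaling, prior count, FPKM (limma 3.58.1), filters and DESeq2 1.42.0. The scripts were tested on simulated data. Sequence searches used Python 3.11.15.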

Additional observations from a re-analysis of the deposited data

Results flagged for a closer look

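For 4 of the 8 listed neighbours the log2 ratio of siLINC00622 over siNC had opposite signs in the lines. Of all 14721 genes measured in both lines, 30.9% were above 0 in both and 31.3% below 0 in both. Opposite signs are thus common among all genes, and nothing particular is read from the 4. The difference between the lines was not tested, since a fit with both terms and their interaction leaves no residual degree of freedom. In the order SK-MEL-28, A375, the ratios of ZNF836 were -0.13 and 0.60, those of ZNF841 were 0.19 and -0.10, those of ZNF615 were -0.040 and 0.12, and those of ZNF480 were -0.054 and 0.0079. The counting intervals held 0 in both lines for ZNF615 and ZNF480, and in 1 line each for ZNF841 and ZNF836.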

How the results depend on the processing

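The log2 ratio of ZNF616 stayed above 0 in both lines under all alternatives run. On the deposited FPKM with a pseudocount of 1 it was 0.85 (SK-MEL-28) and 0.64 (A375), and the 9 listed members summed gave 0.13 and 0.075. The count of listed members past 1.5-fold higher in A375 was 2, and 1 with a prior count of 5 and on FPKM with either pseudocount, without ZNF836. The count of genes called by treatment over both lines was 13 higher and 24 lower. It was 144 and 158 with DESeq2, 57 and 64 without a filter on low counts, and 1 and 0 with library totals, with at least 50 counts in 2 libraries and with limma on FPKM. With DESeq2 size factors 23 were higher. Library totals moved the all-gene median of SK-MEL-28 over A375 from -0.03 to -0.20 and FPKM to -0.14. No called value changed sign. The treatment fit pairs the libraries by cell line. The labels give no replicate numbers, so no other pairing was fitted, and leaving out a library would leave no contrast within a line.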
